A study of Mus musculus with 20 samples.

Results

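The 39 genes described here copy the genome in S phase or prepare the cell to do so, and they were picked by symbol from the 55471 genes of the deposited count table. They load and activate the replicative helicase, synthesise and join DNA, supply nucleotides, copy chromatin, guard the replication fork or drive entry into S phase. RNA was measured in whole kidneys of 20 female mice, 1 library for each mouse, in 2 separate experiments. In the first, i-TERTci mice on a mixed background carried the actin-rtTA+ and tetOp-TERTci+ transgenes, so that doxycycline switched on TERTci, a catalytically inactive TERT, across tissues rather than in 1 cell type, and their controls carried actin-rtTA+ alone. Both genotypes, aged 2 months, drank doxycycline for 15 days and were sampled 8 days after its withdrawal (3 i-TERTci and 4 actin-rtTA+ mice). In the second, mice of 2 months with TERT WT/WT or TERT KO/KO on a Balb/c background received 1 intravenous injection of saline or of adriamycin (ADR, doxorubicin, a drug that injures podocytes) at 12 mg/kg and were sampled 18 days later (4 saline and 3 ADR mice with TERT WT/WT, and 3 of each with TERT KO/KO). The TERT WT/WT mice were littermates of the TERT KO/KO mice, which carry a constitutive loss that is not limited to the kidney.

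DNA replication starts when the origin recognition complex, with CDC6 and CDT1, loads the ring-shaped MCM helicase onto DNA. In S phase CDC45 and the GINS complex turn that ring into an active helicase, and polymerases then copy both strands behind it, held on DNA by the sliding clamp PCNA. Most of these genes are transcribed in a burst before S phase, under E2F transcription factors that are held back by retinoblastoma proteins in resting cells, and most tubule cells of the adult kidney rest outside the cycle until injury recruits them.

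The libraries held 39323498 to 48399322 counts. TERT KO/KO ADR replicate 2, as labelled, was unlike the other libraries. Its 16 markers of kidney tubule and podocyte summed to 61 CPM (counts per 1000000 of the library), against at least 8121 CPM in any other library, while its 10 hepatocyte markers summed to 325700 CPM against at most 162.5 CPM elsewhere. It was therefore left out of the group values and tests below, unless a count is said to include it, and 19 libraries were compared. Tert itself had 122 to 187 counts in saline libraries of TERT WT/WT mice and 51 to 132 in those of TERT KO/KO mice. The part of the gene that was deleted is not given in the sources used here, so these counts over the whole gene do not check the labels. In the i-TERTci experiment 1 mouse, i-TERTci replicate 2, was close to the controls in most of the 39 genes although its 1086 Tert counts were as many as the 1070 of replicate 1 (230 in replicate 3 and 87 to 164 in actin-rtTA+ mice). The edgeR counts, list medians, correlations and single-gene differences of this group are therefore also given without that mouse. That mouse was singled out by its levels of these same genes. Larger differences without it follow from that choice and are not separate support.

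Promoters of some of these genes carry the letters that E2F proteins are known to read. RefSeq promoter windows (build GRCm38.p6), which run from 250 bases before an annotated start site of a gene to 50 after it, were at hand for 34 of the 39 genes. They were searched on both strands for 4 spellings of the E2F word, TTTCGCGC, TTTGGCGC, TTTCCCGC and TTTGCCGC. A word was present in 16 of the 34 genes (47.1%), against 704 of all 27025 genes with a window (2.60%) and 485 of the 10983 genes that averaged 1 CPM or more in these libraries (4.42%). Counted by window, 2.26% of 32851 windows held one. In Mcm5 and in Mcm6 a pair of words overlapped on opposite strands. A match describes letters and is not a measured site. Shown are the windows of the most highly expressed gene with a word in each of 7 roles, with the word in capitals in the orientation of the gene. They lie at chr8:122567765-122568064 (plus strand), chr5:138171834-138172133 (minus strand), chr8:95633309-95633608 (plus strand), chr7:44548766-44549065 (minus strand), chr7:13278576-13278875 (plus strand), chr17:56304063-56304362 (plus strand) and chr4:126556730-126557029 (plus strand), and for Lig1, Mcm7 and Uhrf1 they are 1 of several RefSeq windows.
Cdt1: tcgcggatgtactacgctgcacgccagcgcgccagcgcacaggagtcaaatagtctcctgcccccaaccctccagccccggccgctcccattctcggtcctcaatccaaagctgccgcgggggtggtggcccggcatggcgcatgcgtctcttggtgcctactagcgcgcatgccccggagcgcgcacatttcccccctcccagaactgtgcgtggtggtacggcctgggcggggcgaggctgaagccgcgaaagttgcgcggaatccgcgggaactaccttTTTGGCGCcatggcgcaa
Mcm7: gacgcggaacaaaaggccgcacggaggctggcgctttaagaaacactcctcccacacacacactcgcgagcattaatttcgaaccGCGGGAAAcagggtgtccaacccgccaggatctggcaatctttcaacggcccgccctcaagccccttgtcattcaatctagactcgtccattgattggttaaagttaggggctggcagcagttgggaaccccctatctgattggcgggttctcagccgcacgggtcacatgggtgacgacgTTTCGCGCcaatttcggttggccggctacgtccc
Gins3: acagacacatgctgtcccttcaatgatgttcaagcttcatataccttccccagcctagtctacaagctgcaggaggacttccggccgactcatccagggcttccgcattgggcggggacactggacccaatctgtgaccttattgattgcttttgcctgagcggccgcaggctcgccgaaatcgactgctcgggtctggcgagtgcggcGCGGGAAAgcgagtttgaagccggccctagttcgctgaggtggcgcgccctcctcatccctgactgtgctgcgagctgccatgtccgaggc
Pold1: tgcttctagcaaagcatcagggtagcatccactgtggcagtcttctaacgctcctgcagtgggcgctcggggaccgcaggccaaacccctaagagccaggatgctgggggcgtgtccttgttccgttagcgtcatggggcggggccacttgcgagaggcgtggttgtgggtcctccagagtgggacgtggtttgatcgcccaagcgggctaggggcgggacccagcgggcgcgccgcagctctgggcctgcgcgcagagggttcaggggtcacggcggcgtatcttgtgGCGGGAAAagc
Lig1: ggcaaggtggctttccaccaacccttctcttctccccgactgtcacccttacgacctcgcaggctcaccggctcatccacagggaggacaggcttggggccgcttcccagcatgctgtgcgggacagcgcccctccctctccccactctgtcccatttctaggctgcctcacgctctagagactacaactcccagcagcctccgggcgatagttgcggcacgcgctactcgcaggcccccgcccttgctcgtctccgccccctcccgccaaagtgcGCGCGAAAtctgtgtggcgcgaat
Uhrf1: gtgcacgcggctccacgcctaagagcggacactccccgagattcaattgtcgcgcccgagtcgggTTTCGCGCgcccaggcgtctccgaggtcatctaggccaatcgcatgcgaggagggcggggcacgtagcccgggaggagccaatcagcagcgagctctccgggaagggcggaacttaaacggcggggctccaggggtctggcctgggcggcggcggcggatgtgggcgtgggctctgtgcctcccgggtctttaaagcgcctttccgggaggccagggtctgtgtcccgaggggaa
Clspn: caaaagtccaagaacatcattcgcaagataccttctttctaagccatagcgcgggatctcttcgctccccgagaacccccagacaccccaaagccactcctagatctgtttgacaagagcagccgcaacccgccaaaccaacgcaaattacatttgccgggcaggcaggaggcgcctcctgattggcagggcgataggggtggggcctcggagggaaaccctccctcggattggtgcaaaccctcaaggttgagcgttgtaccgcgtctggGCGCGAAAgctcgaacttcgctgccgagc

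Positions count from the start site of the window shown as base 1, with negative numbers before it. The first base of the word lay at 33 in Cdt1, at -165 and 17 in Mcm7 and at -41 in Gins3. It lay at 40 in Pold1, at 27 in Lig1, at -185 in Uhrf1 and at 22 in Clspn. A different word, TTTGAA, is the cell cycle homology region (CHR) that is known from promoters of mitotic genes. It was present in 12 of 17 mitosis genes with a window (70.6%), while 1 of those 17 (5.88%) held an E2F word. Among the replication genes the CHR word was found in 4 of 34 (11.8%), namely Mcm2, Cdc45, Gins3 and Fen1, against 20.2% of all genes, 17.9% of all windows and 14.7% of genes that averaged 1 CPM or more.

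**Figure D1:**
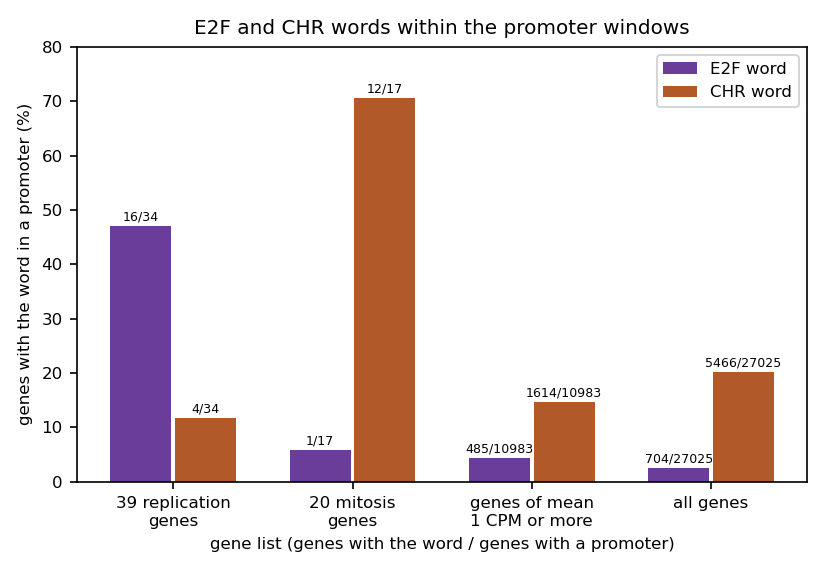
Bars give the percentage of genes with an E2F or CHR word in a RefSeq promoter window, for the replication genes, the mitosis genes, genes averaging 1 CPM or more and all genes, with the counts above each bar. The E2F word reaches 47.1% in the replication genes and 5.88% in the mitosis genes, and the CHR word 11.8% and 70.6%.

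Replication genes were higher 18 days after ADR in both genotypes. All 39 genes passed the filter on low counts in each experiment. After ADR 30 of 39 rose and none fell in TERT WT/WT mice, where 15.2% of the 19023 genes tested were called higher (edgeR quasi-likelihood test, adjusted p under 0.05). In TERT KO/KO mice 26 of 39 rose and none fell, against 3.83% of genes called higher. Fold changes are on the log2 scale throughout and carry their SE. The median log2 fold change of the 39 was 0.87 with TERT WT/WT and 1.03 with TERT KO/KO, where the median over all genes tested was 0.01 in each. The count in TERT KO/KO mice, with 2 ADR libraries, depended on single mice. It was 10 without ADR replicate 3 and 17, 14 and 13 without saline replicate 1, 2 and 3, in each case all among the 26. With TERT KO/KO ADR replicate 2 in the fit, 20 genes were called in TERT WT/WT mice and 22 in TERT KO/KO mice, all of them among the 30 and the 26. Without TERT WT/WT ADR replicate 2 the count in TERT WT/WT mice was 23. In a whole organ, more cells of a kind and more RNA per cell cannot be told apart.

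Summed over the 39 genes, the level was 209.1, 212.0, 206.7 and 211.3 CPM in the 4 TERT WT/WT saline libraries, with trimmed-mean (TMM) normalisation across the 19 libraries. It was 311.8, 425.2 and 377.9 CPM in the TERT WT/WT ADR libraries. All 3 lay above every saline library, and their mean was 1.77 times that of saline. The TERT KO/KO saline libraries had 226.4, 231.1 and 218.4 CPM, and ADR replicates 1 and 3 had 386.3 and 482.8 CPM, with a mean of 1.93 times that of saline. In the first experiment the sum was 208.8, 200.7, 203.6 and 231.6 CPM in actin-rtTA+ mice and 534.5, 212.8 and 473.7 CPM in i-TERTci mice. I-TERTci replicates 1 and 3 exceeded every control, while replicate 2 lay among the controls.

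**Figure D2:**
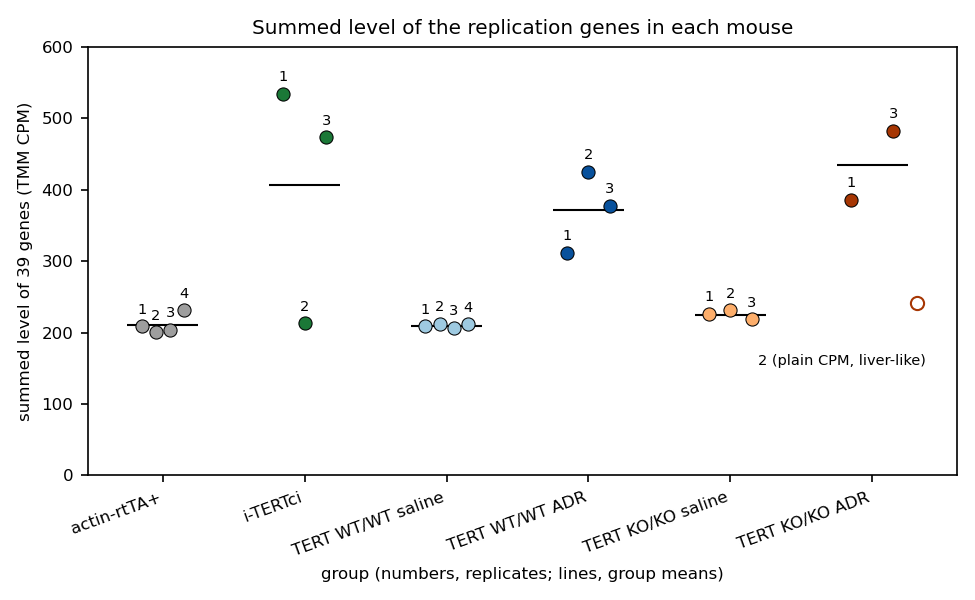
Each dot is the summed level of the 39 genes in 1 library (TMM CPM, vertical axis) by group, numbered by replicate, with lines at the group means. The open dot is TERT KO/KO ADR replicate 2, in CPM without TMM factors, which was left out. I-TERTci replicate 2, at 212.8 CPM, lies within the range of its controls, 200.7 to 231.6.

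In i-TERTci mice 0 of 39 genes passed the edgeR test, against 0.00564% of 17745 genes called higher, that is, 1 gene. At an unadjusted p under 0.05, 30 of the 39 were higher and none lower, where 14.8% of all genes were higher. DESeq2 called 19 of the 39 higher and none lower, with 8.12% of its genes called higher. The fitted log2 fold change was above 0 for 39 of 39 genes, with a median of 0.98 against 0.02 over all genes. Without i-TERTci replicate 2 edgeR called 35 of 39 higher (15.1% of all genes), all but Orc6, Gins3, Rfc4 and Rfc5, and the median was 1.35. That mouse was left out for its levels of these same genes, so this higher count follows from the choice. With replicate 2 included, libraries of the groups did not overlap for 10 of 39 genes, against 8.76% of genes overall. Replicate 1 was above all 4 controls in 39 of 39 genes and replicate 3 in 38, whereas replicate 2 was above all of them in 10. For single libraries the share of all genes was not computed. Actin-rtTA+ replicates 1, 2, 3 and 4 were above all the other controls in 5, 7, 7 and 20 of the 39, so the 10 of replicate 2 lay within the range of controls.

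**Figure D3:**
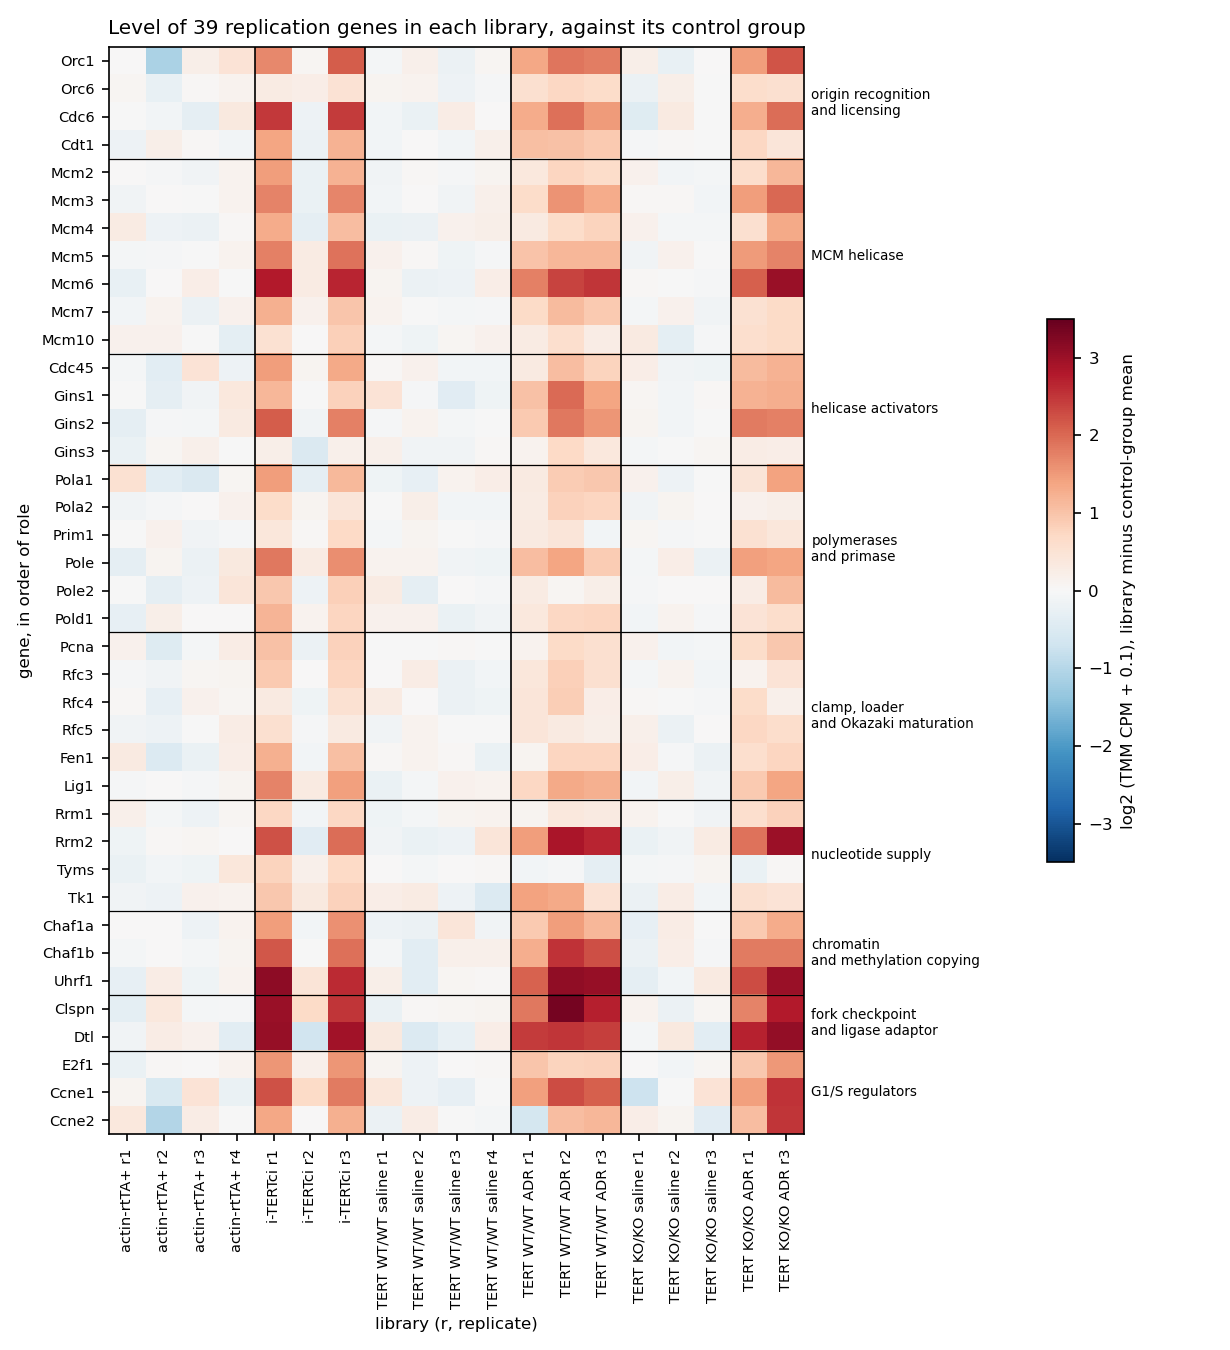
Rows are the 39 genes in order of role, and columns are the 19 libraries. Colour gives the log2 level (TMM CPM + 0.1) minus that of the library's own control-group mean, from blue (lower) to red (higher). The ADR columns and i-TERTci replicates 1 and 3 are red in nearly all rows, and i-TERTci replicate 2 resembles the control columns.

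Origin recognition and licensing genes rose in TERT WT/WT mice (4 of 4 called) and 3 of 4 rose in TERT KO/KO mice. Cdt1, which brings the MCM ring to the origin, was the most abundant of them. It had 5.12, 5.46, 5.05 and 6.17 CPM in TERT WT/WT saline and 11.4, 11.2 and 10.3 CPM in TERT WT/WT ADR libraries. TERT KO/KO mice had 7.12, 7.55 and 7.28 CPM after saline and 12.2 and 9.902 CPM after ADR. The groups did not overlap in either genotype, with log2 fold changes of 1.01 ± 0.12 (edgeR adjusted p = 0.000759) and, in TERT KO/KO mice, 0.60 ± 0.14 (edgeR adjusted p = 0.0331). Cdt1 in actin-rtTA+ mice was 5.02, 6.68, 5.88 and 5.34 CPM, and in i-TERTci mice 15.2, 4.92 and 13.4 CPM, so that replicate 2 lay below every control and the fitted difference was 0.98 ± 0.34 (edgeR adjusted p = 0.15, DESeq2 adjusted p = 0.0624). Orc6, a subunit of the origin recognition complex, had 3.996, 4.07, 3.31 and 3.605 CPM in TERT WT/WT saline and 5.55, 6.27 and 5.85 CPM in TERT WT/WT ADR libraries. It had 3.801, 5.13 and 4.36 CPM in saline and 6.87 and 6.55 CPM in ADR libraries of TERT KO/KO mice. Every ADR library exceeded every saline library of its genotype, and Orc6 rose by 0.65 ± 0.14 (edgeR adjusted p = 0.00828) on the log2 scale in TERT WT/WT mice, while the difference of 0.61 ± 0.17 (edgeR adjusted p = 0.0591) in TERT KO/KO mice did not pass. In the first experiment Orc6 was 5.04, 4.02, 4.898 and 5.22 CPM in controls and 5.85, 5.65 and 6.88 CPM in i-TERTci mice, all 3 above the controls, and the difference was small at 0.37 ± 0.17 (edgeR adjusted p = 0.256, DESeq2 adjusted p = 0.257). Its gene lies across the far more abundant Vps35 on the other strand, and since the strand setting of the counting is not given in the sources used here, reads of the pair cannot be told apart. Orc1 and Cdc6, the subunit and the loader with the lowest levels, rose most in this role, by 2.11 ± 0.33 (edgeR adjusted p = 0.00177) and 1.76 ± 0.28 (edgeR adjusted p = 0.00206) in TERT WT/WT mice and by 2.32 ± 0.39 (edgeR adjusted p = 0.00855) and 1.79 ± 0.33 (edgeR adjusted p = 0.0123) in TERT KO/KO mice. Orc1 rests on few reads, with 1 to 13 counts in the actin-rtTA+ and 7 to 11 in the TERT WT/WT saline libraries.

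The MCM helicase genes rose in both genotypes, 6 of 7 in each, and in each the exception was Mcm10, a replication factor that binds the helicase without being part of the ring. Mcm7, a ring subunit, had 19.1, 17.3, 16.5 and 16.9 CPM in TERT WT/WT saline and 27.6, 37.97 and 33.1 CPM in TERT WT/WT ADR libraries. Its level in TERT KO/KO mice was 20.8, 24.3 and 20 CPM after saline and 31.2 and 34.6 CPM after ADR. The ADR libraries were above saline throughout, with log2 fold changes of 0.91 ± 0.12 (edgeR adjusted p = 0.00096) and 0.61 ± 0.14 (edgeR adjusted p = 0.0319). Mcm7 shares its locus with Cops6 and Ap4m1 on the opposite strand and with a cluster of microRNA genes. The i-TERTci libraries had 40.4, 19.1 and 33.2 CPM and the actin-rtTA+ libraries 16.01, 18.5, 14.7 and 18.98 CPM, and although the groups did not overlap the difference of 0.87 ± 0.24 (edgeR adjusted p = 0.0933, DESeq2 adjusted p = 0.019) was called by DESeq2 alone. Mcm2, another ring subunit, had 14.4, 16.4, 15.4 and 16.8 CPM in TERT WT/WT saline and 20.4, 26.7 and 24.8 CPM in TERT WT/WT ADR libraries. With TERT KO/KO, Mcm2 had 15.9, 13.6 and 13.8 CPM after saline and 22.1 and 32.1 CPM after ADR. Both contrasts were free of overlap, and Mcm2 rose by 0.60 ± 0.14 (edgeR adjusted p = 0.0104) and 0.92 ± 0.17 (edgeR adjusted p = 0.012). It reached 36.1, 10.98 and 30.4 CPM in i-TERTci mice against 13.1, 12.5, 11.98 and 14.2 CPM in controls, with replicate 2 below all controls and a difference of 1.02 ± 0.34 (edgeR adjusted p = 0.136, DESeq2 adjusted p = 0.0483).

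Mcm6 rose most of the ring genes. It had 1.87, 1.495, 1.54 and 2.08 CPM in TERT WT/WT saline and 6.198, 9.48 and 10.4 CPM in TERT WT/WT ADR libraries, and 2.33, 2.25 and 2.21 and 10.02 and 19.1 CPM in the corresponding TERT KO/KO libraries. No ADR library came near a saline library, and the log2 fold changes were 2.32 ± 0.24 (edgeR adjusted p = 0.000646) and 2.69 ± 0.28 (edgeR adjusted p = 0.00167). In i-TERTci mice it had 19.8, 3.4 and 18.2 CPM against 2.28, 2.81, 3.26 and 2.75 CPM in controls, so that even replicate 2 lay just above them, and the difference was 2.34 ± 0.51 (edgeR adjusted p = 0.0758, DESeq2 adjusted p = 0.000135). Mcm3, Mcm4 and Mcm5 rose by 1.23 ± 0.21, 0.59 ± 0.19 and 1.12 ± 0.12 in TERT WT/WT and by 1.80 ± 0.24, 1.00 ± 0.23 and 1.65 ± 0.15 in TERT KO/KO mice. Mcm10 differed by 0.40 ± 0.19 (edgeR adjusted p = 0.142) and 0.65 ± 0.23 (edgeR adjusted p = 0.109), short of the threshold in both.

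Since the 6 subunits MCM2 to MCM7 form a ring with 1 copy of each, their levels were also compared per kb of exon, a comparison chosen after the values were seen and given without a test. Mcm7 was the highest subunit and Mcm6 the lowest in every saline and actin-rtTA+ library. The highest stood 8.60 to 12.2 times above the lowest in TERT WT/WT saline libraries and 3.34 to 4.70 times in TERT WT/WT ADR libraries. The ratio was 9.41 to 11.4 in TERT KO/KO saline libraries and 3.28 and 1.91 in TERT KO/KO ADR replicates 1 and 3. It was 4.77 to 7.40 in actin-rtTA+ mice and 2.16, 5.93 and 1.92 in i-TERTci replicates 1, 2 and 3. The highest and the lowest ring gene were thus closer to each other in each ADR library than in any saline library of its genotype. Mcm6 was the lowest in every library compared and rose most, so this ratio largely follows Mcm6. The ratio without Mcm6 was not computed, and these values do not show that the other ring genes drew together. Without Mcm7, whose counts may include its neighbours, the ratio was 5.17 to 7.88 in TERT WT/WT saline against 1.79 to 2.21 in TERT WT/WT ADR libraries.

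**Figure D4:**
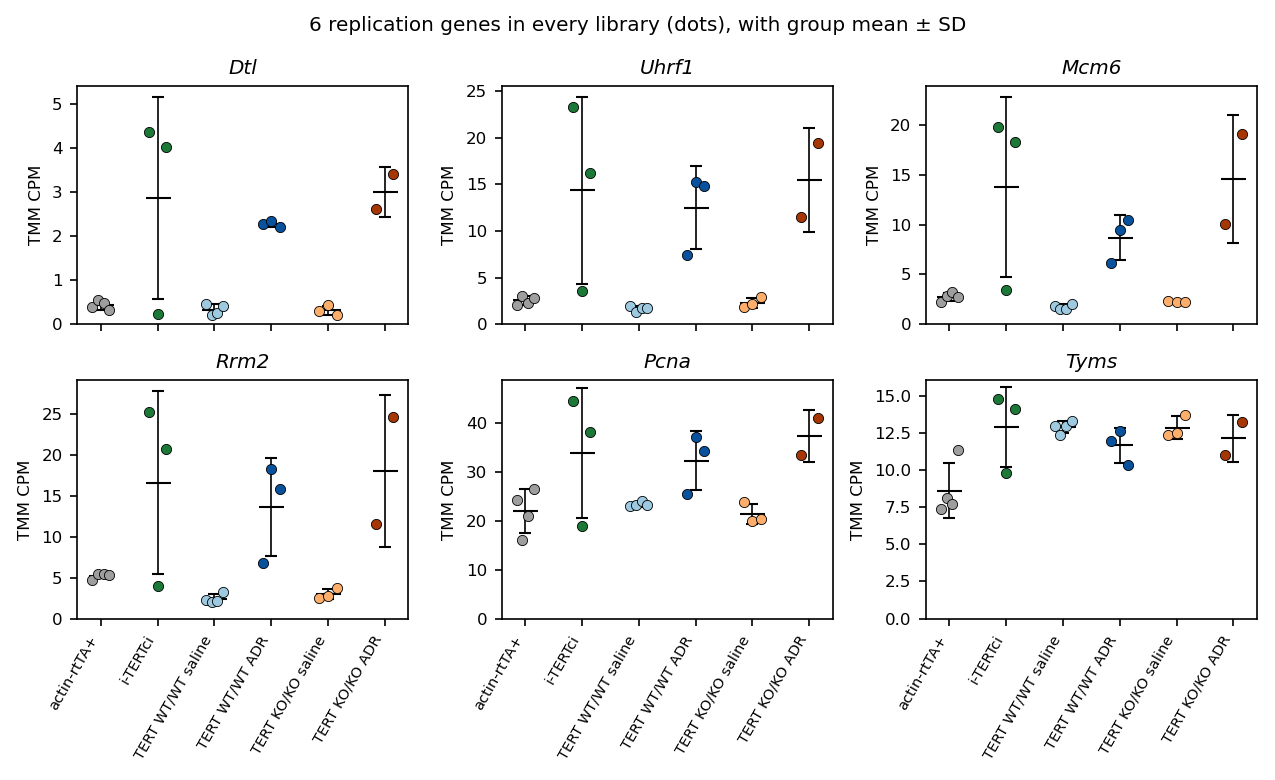
Levels (TMM CPM, linear axes from 0) of Dtl, Uhrf1, Mcm6, Rrm2, Pcna and Tyms in every library by group, with horizontal bars at group means and error bars of 1 SD. Mcm6 rises from a mean of 1.74 to 8.71 CPM with ADR in TERT WT/WT mice, and Tyms stays between 10.3 and 13.7 CPM in all libraries of that experiment.

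Of the helicase activators, CDC45 and the GINS subunits, 3 of 4 rose in each genotype. Cdc45 had 1.74, 1.87, 1.58 and 1.58 CPM in TERT WT/WT saline and 2.13, 3.72 and 2.95 CPM in TERT WT/WT ADR libraries, and 1.91, 1.48 and 1.46 CPM in saline and 3.57 and 3.92 CPM in ADR libraries of TERT KO/KO mice. The ADR libraries stood above saline in both genotypes, and Cdc45 rose by 0.79 ± 0.21 (edgeR adjusted p = 0.0182) and 1.21 ± 0.25 (edgeR adjusted p = 0.0205). It was 1.59, 1.26, 2.39 and 1.46 CPM in actin-rtTA+ and 4.83, 1.805 and 4.31 CPM in i-TERTci mice, where replicate 2 overlapped the controls and the difference was 1.14 ± 0.38 (edgeR adjusted p = 0.132, DESeq2 adjusted p = 0.0419). Gins2 had 1.99, 2.23, 1.93 and 2.05 CPM in TERT WT/WT saline and 3.92, 7.56 and 6.16 CPM in TERT WT/WT ADR libraries. For TERT KO/KO mice the values were 2.096, 1.82 and 1.904 CPM after saline and 7.04 and 6.89 CPM after ADR. Both ADR groups cleared their controls, and the log2 fold changes of Gins2 were 1.52 ± 0.20 (edgeR adjusted p = 0.000999) and 1.85 ± 0.24 (edgeR adjusted p = 0.0039). Its level of 8.98, 1.83 and 7.05 CPM in i-TERTci mice compared with 1.61, 1.96, 1.92 and 2.53 CPM in controls (log2 difference 1.59 ± 0.47, edgeR adjusted p = 0.106, DESeq2 adjusted p = 0.0117), with replicate 2 inside the control range. Both genes overlap more abundant genes on the other strand, Ufd1 for Cdc45 and Gse1 for Gins2. Gins1 rose by 1.62 ± 0.28 and 1.32 ± 0.33. Gins3, the remaining subunit and one with an E2F word, differed by 0.43 ± 0.19 (edgeR adjusted p = 0.102) and 0.27 ± 0.22 (edgeR adjusted p = 0.473), and in i-TERTci mice by 0.01 ± 0.27 (edgeR adjusted p = 0.989), the smallest difference there, whose sign changed under other settings.

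Polymerase and primase genes passed in 4 of 6 cases with TERT WT/WT and in 1 of 6, Pole, with TERT KO/KO. Pola2, the second subunit of the polymerase that lays primers with primase, had 9.37, 10.9, 8.95 and 8.82 CPM in TERT WT/WT saline and 11.7, 16.6 and 16.1 CPM in TERT WT/WT ADR libraries. The TERT KO/KO values were 10.7, 12.4 and 11.7 CPM after saline and 12.8 and 13.5 CPM after ADR. Pola2 therefore cleared its controls in both genotypes by narrow margins, rising by 0.64 ± 0.14 (edgeR adjusted p = 0.00723) in TERT WT/WT mice, while the TERT KO/KO difference was 0.19 ± 0.16 (edgeR adjusted p = 0.504). In the first experiment it was 9.64, 10.3, 10.7 and 11.7 CPM in controls and 16.5, 11.4 and 14.2 CPM in i-TERTci mice, replicate 2 within the controls (log2 difference 0.42 ± 0.16, edgeR adjusted p = 0.172, DESeq2 adjusted p = 0.159). Pold1, the catalytic subunit of the lagging strand polymerase, had 11.04, 11.04, 8.405 and 9.15 CPM in TERT WT/WT saline and 12.8, 16.4 and 16.7 CPM in TERT WT/WT ADR libraries. TERT KO/KO libraries had 9.56, 11.2 and 10.02 CPM after saline and 14.2 and 15.8 CPM after ADR. Again no library overlapped, and the difference passed in TERT WT/WT mice, at 0.62 ± 0.14 (edgeR adjusted p = 0.00775), and missed the threshold in TERT KO/KO mice, at 0.56 ± 0.16 (edgeR adjusted p = 0.0659). I-TERTci mice had 20.3, 9.57 and 14.8 CPM of Pold1 and controls 7.17, 10.3, 8.95 and 8.87 CPM (log2 difference 0.78 ± 0.25, edgeR adjusted p = 0.127, DESeq2 adjusted p = 0.0565), replicate 2 again lying within the controls. Pole, which encodes the catalytic subunit of the leading strand polymerase, rose most of the role, by 1.16 ± 0.17 and 1.44 ± 0.20, and its second subunit gene Pole2 differed by 0.20 ± 0.24 (edgeR adjusted p = 0.561) and 0.80 ± 0.29 (edgeR adjusted p = 0.116). Pola1, the catalytic subunit that extends primers, rose by 0.76 ± 0.25 (edgeR adjusted p = 0.0408) in TERT WT/WT mice, with 1.03 ± 0.30 (edgeR adjusted p = 0.0642) in TERT KO/KO mice. Prim1, the primase subunit that makes the RNA primer, differed by 0.22 ± 0.13 (edgeR adjusted p = 0.243) and 0.46 ± 0.16 (edgeR adjusted p = 0.103).

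The clamp, clamp loader and Okazaki fragment genes passed in 4 of 6 cases with TERT WT/WT and in 3 of 6 with TERT KO/KO. Pcna, the sliding clamp, was the most abundant of all 39 genes per kb. Its level was 23.1, 23.2, 24.1 and 23.2 CPM in TERT WT/WT saline and 25.5, 37.1 and 34.2 CPM in TERT WT/WT ADR libraries. TERT KO/KO mice had 23.8, 19.9 and 20.4 CPM after saline and 33.5 and 41.02 CPM after ADR. All ADR libraries exceeded saline, by modest log2 fold changes of 0.46 ± 0.13 (edgeR adjusted p = 0.0238) and 0.81 ± 0.16 (edgeR adjusted p = 0.0162). Controls of the first experiment had 24.3, 16.1, 20.98 and 26.4 CPM and i-TERTci mice 44.4, 18.9 and 38.2 CPM, with replicate 2 among the controls (log2 difference 0.64 ± 0.29, edgeR adjusted p = 0.235, DESeq2 adjusted p = 0.206). Lig1, the ligase that seals Okazaki fragments, had 5.96, 6.72, 7.83 and 7.598 CPM in TERT WT/WT saline and 11.8, 17.7 and 16.6 CPM in TERT WT/WT ADR libraries. It had 7.901, 9.74 and 7.698 CPM in saline and 15.9 and 21.96 CPM in ADR libraries of TERT KO/KO mice. Lig1 rose without overlap, by 1.13 ± 0.17 (edgeR adjusted p = 0.0017) and 1.17 ± 0.20 (edgeR adjusted p = 0.00968). In i-TERTci mice its 22.9, 8.39 and 18.6 CPM all exceeded the 6.52, 6.81, 6.51 and 7.201 CPM of controls, and DESeq2 but not edgeR called the difference, 1.32 ± 0.30 (edgeR adjusted p = 0.0758, DESeq2 adjusted p = 0.00141). Fen1, the nuclease that trims Okazaki flaps, rose by 0.56 ± 0.19 (edgeR adjusted p = 0.0417) in TERT WT/WT mice, with ADR replicate 1 inside the saline range, and differed by 0.69 ± 0.22 (edgeR adjusted p = 0.0854) in TERT KO/KO mice. Rfc3 rose by 0.61 ± 0.16 with TERT WT/WT and Rfc5 by 0.67 ± 0.15 with TERT KO/KO, and the test of a difference between the genotypes passed for neither gene. Rfc4 passed in neither, at 0.53 ± 0.20 (edgeR adjusted p = 0.0621) and 0.44 ± 0.23 (edgeR adjusted p = 0.262), nor did Rfc5 in TERT WT/WT (log2 difference 0.31 ± 0.12, edgeR adjusted p = 0.0752) or Rfc3 in TERT KO/KO mice (log2 difference 0.33 ± 0.20, edgeR adjusted p = 0.324). Rfc4 and Rfc5 overlap genes with many more counts, Eif4a2 and Wsb2.

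Nucleotide supply genes were split, with 2 of 4 called in each genotype. Rrm1, the large subunit of ribonucleotide reductase, had 16.2, 17.3, 19.1 and 19.5 CPM in TERT WT/WT saline and 19.4, 23.5 and 22.5 CPM in TERT WT/WT ADR libraries. TERT KO/KO saline libraries had 17.7, 15.98 and 14.7 CPM and TERT KO/KO ADR libraries 24.4 and 28.2 CPM. TERT WT/WT ADR replicate 1 lay within saline, and the difference was 0.27 ± 0.12 (edgeR adjusted p = 0.0974), whereas Rrm1 rose by 0.71 ± 0.14 (edgeR adjusted p = 0.0152) in TERT KO/KO mice. It was 17.1, 14.4, 13.3 and 15.8 CPM in controls and 25.1, 14.3 and 24.98 CPM in i-TERTci mice, replicate 2 lying within the controls (log2 difference 0.52 ± 0.21, edgeR adjusted p = 0.196, DESeq2 adjusted p = 0.185). Tk1, the thymidine kinase of the salvage route, had 9.14, 9.46, 6.803 and 5.498 CPM in TERT WT/WT saline and 20.8, 19.6 and 10.97 CPM in TERT WT/WT ADR libraries. TERT KO/KO mice had 10.8, 14.8 and 11.6 CPM of Tk1 after saline and 18.1 and 17.2 CPM after ADR. The groups were apart in both genotypes, and Tk1 rose by 1.14 ± 0.23 (edgeR adjusted p = 0.00523) in TERT WT/WT mice, against 0.52 ± 0.27 (edgeR adjusted p = 0.255) in TERT KO/KO mice, whose saline level was higher. In i-TERTci mice Tk1 had 17.1, 11.2 and 15.5 CPM, all above the 7.99, 7.79, 9.75 and 9.63 CPM of controls (log2 difference 0.75 ± 0.18, edgeR adjusted p = 0.0795, DESeq2 adjusted p = 0.00923). Rrm2, the small reductase subunit made in S phase, went from 2.21, 2.02, 2.11 and 3.29 to 6.84, 18.2 and 15.8 CPM with ADR in TERT WT/WT mice and from 2.56, 2.73 and 3.697 to 11.5 and 24.6 CPM in TERT KO/KO mice. It rose by 2.50 ± 0.34 (edgeR adjusted p = 0.00122) and 2.60 ± 0.40 (edgeR adjusted p = 0.00605), far more than its partner Rrm1. Tyms, which makes thymidylate, did not follow. Its values were 13, 12.4, 12.97 and 13.3 CPM in TERT WT/WT saline, 11.99, 12.7 and 10.3 CPM in TERT WT/WT ADR, 12.4, 12.5 and 13.7 CPM in saline and 11.03 and 13.3 CPM in ADR libraries of TERT KO/KO mice. ADR and saline overlapped in both genotypes, with log2 differences of -0.15 ± 0.11 (edgeR adjusted p = 0.315) and -0.07 ± 0.13 (edgeR adjusted p = 0.761), the only negative values among the 39 in these comparisons. In i-TERTci mice Tyms was 14.8, 9.78 and 14.1 CPM against 7.36, 8.098, 7.71 and 11.3 CPM in controls, and the difference, 0.60 ± 0.21 (edgeR adjusted p = 0.156, DESeq2 adjusted p = 0.109), was above 0.

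The genes that copy chromatin and DNA methylation were all called in both genotypes (3 of 3). Uhrf1, which recruits the maintenance methyltransferase to newly copied DNA, had 1.96, 1.28, 1.76 and 1.74 CPM in TERT WT/WT saline and 7.39, 15.3 and 14.8 CPM in TERT WT/WT ADR libraries. The TERT KO/KO values were 1.84, 2.16 and 2.897 CPM after saline and 11.5 and 19.4 CPM after ADR. Uhrf1 was several times higher in every ADR library and rose by 2.89 ± 0.28 (edgeR adjusted p = 0.000554) and 2.76 ± 0.33 (edgeR adjusted p = 0.00274), the second largest fold change in each genotype. The actin-rtTA+ libraries had 2.06, 3.07, 2.297 and 2.81 CPM and the i-TERTci libraries 23.3, 3.56 and 16.3 CPM, with replicate 2 just above the controls (log2 difference 2.51 ± 0.52, edgeR adjusted p = 0.0758, DESeq2 adjusted p = 5.57e-05). Chaf1b, a subunit of the chromatin assembly factor that deposits histones behind the fork, had 1.99, 1.58, 2.37 and 2.33 CPM in TERT WT/WT saline and 5.17, 12.4 and 10.3 CPM in TERT WT/WT ADR libraries. It had 2.74, 3.76 and 3.12 CPM in saline and 11.6 and 11.5 CPM in ADR libraries of TERT KO/KO mice. Chaf1b rose by 2.17 ± 0.26 (edgeR adjusted p = 0.000759) and 1.86 ± 0.30 (edgeR adjusted p = 0.00726), again without overlap. Its level in i-TERTci mice was 13.7, 2.88 and 11.5 CPM against 2.802, 2.97, 2.79 and 3.12 CPM, replicate 2 within the controls (log2 difference 1.70 ± 0.44, edgeR adjusted p = 0.0887, DESeq2 adjusted p = 0.00348). Chaf1a, the large subunit, rose by 1.22 ± 0.21 and 1.15 ± 0.25.

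Clspn and Dtl had the lowest levels per kb of the 39 in saline TERT WT/WT mice and rose in both genotypes. Clspn, the adaptor that passes the fork's alarm from ATR to CHK1, had 0.226, 0.295, 0.307 and 0.311 CPM in TERT WT/WT saline and 1.29, 3.84 and 2.42 CPM in TERT WT/WT ADR libraries. TERT KO/KO mice had 0.484, 0.3702 and 0.469 CPM after saline and 1.702 and 3.58 CPM after ADR. All ADR libraries were above all saline libraries, and the rise of 3.13 ± 0.39 (edgeR adjusted p = 0.000851) in TERT WT/WT mice was the largest of the 39, with 2.58 ± 0.44 (edgeR adjusted p = 0.00881) in TERT KO/KO mice. Clspn in i-TERTci mice was 5.38, 0.968 and 3.69 CPM against 0.434, 0.774, 0.539 and 0.549 CPM, so that replicate 2 too lay above the controls (log2 difference 2.57 ± 0.53, edgeR adjusted p = 0.0758, DESeq2 adjusted p = 0.00012). Dtl, the ligase adaptor that marks CDT1 for destruction once replication has begun, had 0.452, 0.211, 0.263 and 0.415 CPM in TERT WT/WT saline and 2.27, 2.35 and 2.21 CPM in TERT WT/WT ADR libraries. It had 0.299, 0.427 and 0.221 CPM in saline and 2.605 and 3.41 CPM in ADR libraries of TERT KO/KO mice. The TERT WT/WT ADR libraries were nearly equal for Dtl, which rose by 2.76 ± 0.29 (edgeR adjusted p = 0.000646) and, in TERT KO/KO mice, by 3.25 ± 0.35 (edgeR adjusted p = 0.00167), the largest there. Controls of the first experiment had 0.391, 0.542, 0.492 and 0.317 CPM and i-TERTci mice 4.36, 0.235 and 4.01 CPM, with replicate 2 below every control, and although the fitted difference was the largest of the 39 it was called by DESeq2 alone (log2 difference 2.74 ± 0.77, edgeR adjusted p = 0.099, DESeq2 adjusted p = 0.0038).

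Among the regulators of S-phase entry 2 of 3 rose with TERT WT/WT and 3 of 3 with TERT KO/KO. E2f1, an activating member of the E2F family, had 3.68, 2.99, 3.44 and 3.53 CPM in TERT WT/WT saline and 6.796, 5.93 and 5.99 CPM in TERT WT/WT ADR libraries. TERT KO/KO saline libraries had 3.43, 3.19 and 3.53 CPM of E2f1 and ADR libraries 6.58 and 9.902 CPM. E2f1 was clear of its controls in both, rising by 0.87 ± 0.16 (edgeR adjusted p = 0.0038) and 1.29 ± 0.19 (edgeR adjusted p = 0.00573). All i-TERTci libraries, at 13.1, 4.97 and 12.9 CPM, lay above the controls at 3.74, 4.54, 4.45 and 4.79 CPM, replicate 2 by the least (log2 difference 1.25 ± 0.32, edgeR adjusted p = 0.0852, DESeq2 adjusted p = 0.00533). Ccne1, cyclin E1, which activates CDK2 at the start of S phase, had 0.587, 0.358, 0.329 and 0.415 CPM in TERT WT/WT saline and 1.32, 2.44 and 2.13 CPM in TERT WT/WT ADR libraries. With TERT KO/KO, Ccne1 had 0.253, 0.484 and 0.717 CPM after saline and 1.49 and 3.26 CPM after ADR. No library overlapped, and Ccne1 rose by 2.21 ± 0.39 (edgeR adjusted p = 0.00286) and 2.31 ± 0.46 (edgeR adjusted p = 0.0165). It had 3.703, 1.203 and 2.74 CPM in i-TERTci mice, all above the 0.7603, 0.464, 1.03 and 0.591 CPM of controls (log2 difference 1.86 ± 0.43, edgeR adjusted p = 0.0777, DESeq2 adjusted p = 0.00148). Ccne2, cyclin E2, rose by 2.15 ± 0.54 (edgeR adjusted p = 0.0398) in TERT KO/KO mice, while in TERT WT/WT mice ADR replicate 1, at 0.431 CPM, lay below saline and the difference was 0.82 ± 0.45 (edgeR adjusted p = 0.189).

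The genes not yet given for i-TERTci mice did not pass the edgeR test either, and their log2 differences are given with SE. Mcm3, Mcm4 and Mcm5 differed by 1.35 ± 0.41, 0.86 ± 0.34 and 1.52 ± 0.34, and of these Mcm5 had all i-TERTci libraries above the controls. Mcm10 and Gins1 differed by 0.53 ± 0.25 and 0.80 ± 0.35, and Orc1 and Cdc6 by 1.97 ± 0.71 and 2.17 ± 0.59. Pola1, Prim1, Pole and Pole2 stood at 0.98 ± 0.44, 0.42 ± 0.19, 1.45 ± 0.36 and 0.69 ± 0.36. In each of these genes replicates 1 and 3 exceeded every control. The differences of Rfc3, Rfc4, Rfc5 and Fen1 were 0.64 ± 0.23, 0.28 ± 0.23, 0.32 ± 0.18 and 0.88 ± 0.34, those of Rrm2 and Chaf1a were 1.68 ± 0.50 and 1.20 ± 0.37, and that of Ccne2 was 1.07 ± 0.46. DESeq2 called Cdc6, Mcm3, Mcm5, Pole, Rrm2 and Chaf1a among them.

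Without i-TERTci replicate 2 every one of the 39 differences was larger. Those of Orc1, Cdc6 and Cdt1 were 2.40 ± 0.58, 2.64 ± 0.27 and 1.33 ± 0.16, and that of Orc6, which did not pass, was 0.42 ± 0.19. Mcm2 to Mcm7 stood at 1.37 ± 0.13, 1.75 ± 0.14, 1.21 ± 0.18, 1.87 ± 0.14, 2.79 ± 0.17 and 1.12 ± 0.15 in order of number, and Mcm10 at 0.72 ± 0.22. Cdc45, Gins1 and Gins2 stood at 1.46 ± 0.27, 1.07 ± 0.29 and 2.01 ± 0.22, and Gins3, not called, at 0.21 ± 0.23. The ring and its activators thus all passed but Gins3. Among the polymerases Pola1, Pola2, Prim1, Pole, Pole2 and Pold1 differed by 1.35 ± 0.30, 0.55 ± 0.15, 0.57 ± 0.17, 1.79 ± 0.22, 0.97 ± 0.30 and 1.01 ± 0.18, and all passed. Pcna, Rfc3, Fen1 and Lig1 passed at 0.92 ± 0.19, 0.87 ± 0.16, 1.18 ± 0.24 and 1.63 ± 0.14, while Rfc4 and Rfc5 did not at 0.45 ± 0.21 and 0.46 ± 0.17. The nucleotide supply genes Rrm1, Rrm2, Tyms and Tk1 passed at 0.73 ± 0.14, 2.14 ± 0.14, 0.76 ± 0.19 and 0.90 ± 0.15, and the chromatin genes Chaf1a, Chaf1b and Uhrf1 at 1.57 ± 0.16, 2.12 ± 0.16 and 2.96 ± 0.21. Clspn and Dtl were again the largest, at 3.00 ± 0.29 and 3.28 ± 0.28, and E2f1, Ccne1 and Ccne2 passed at 1.58 ± 0.16, 2.18 ± 0.33 and 1.38 ± 0.39. The 2 remaining i-TERTci libraries are those in which the summed level was above every control. Since replicate 2 was left out for its low levels of these genes, the larger differences follow from that choice.

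**Figure D5:**
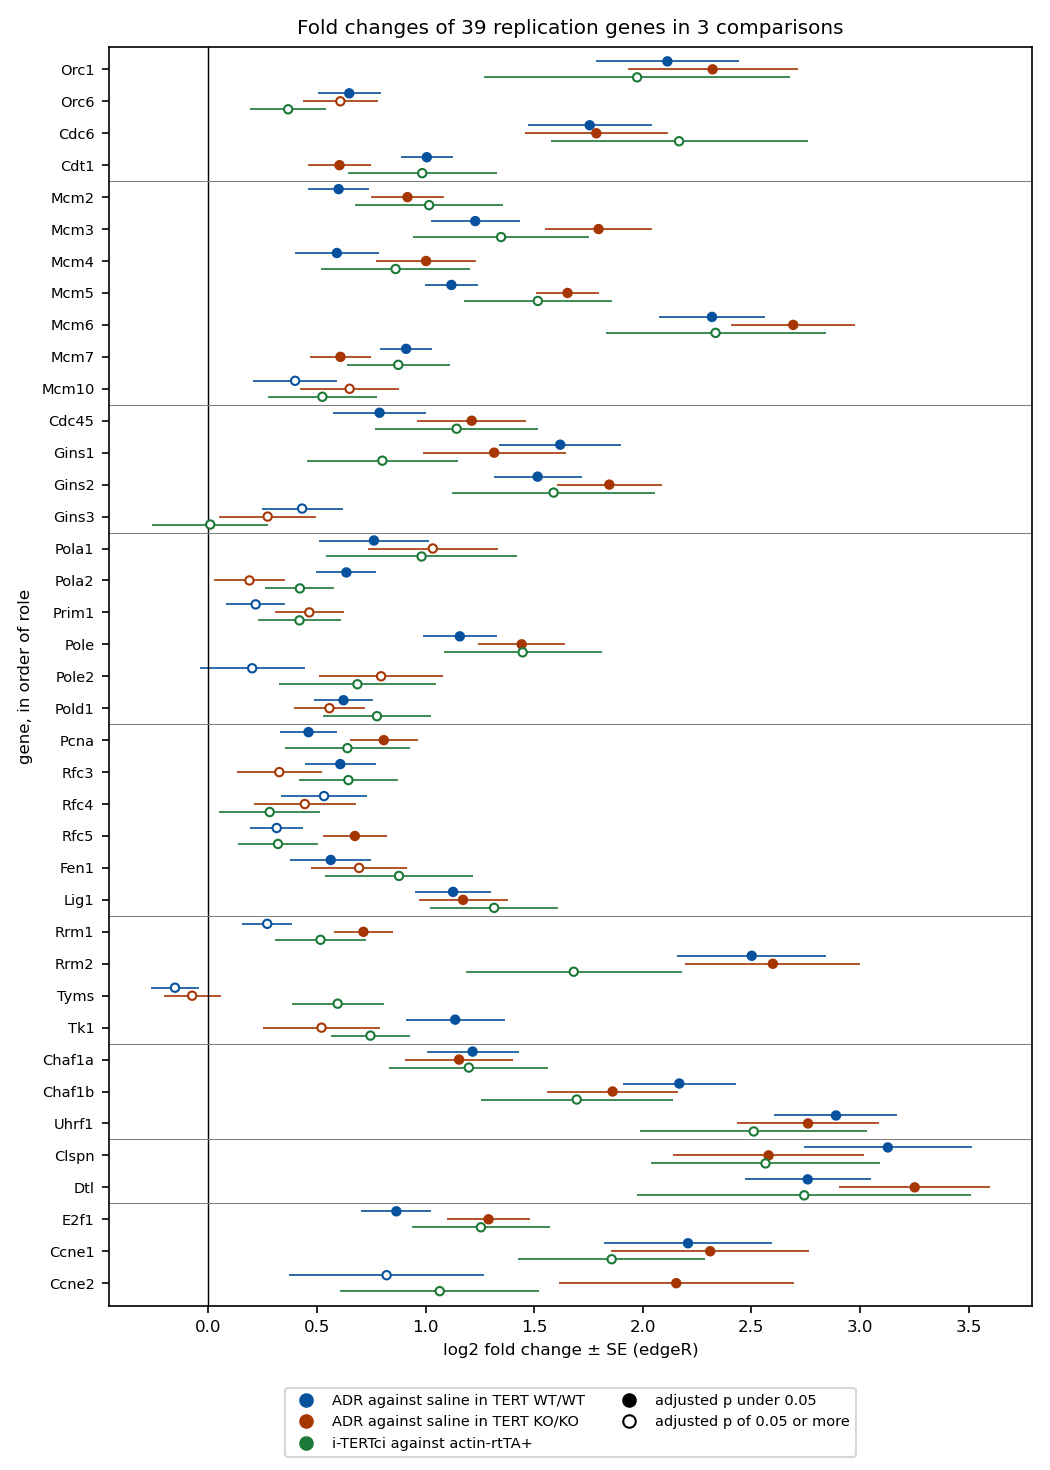
Log2 fold change with its SE (edgeR) for each of the 39 genes, in order of role, for ADR in TERT WT/WT mice (blue), ADR in TERT KO/KO mice (brown) and i-TERTci (green). Filled dots passed an adjusted p of 0.05. Clspn, Dtl and Uhrf1 lie farthest to the right, Tyms lies left of 0 in both ADR comparisons, and no green dot is filled.

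The order of the genes by fold change was much alike in the comparisons, which share no control libraries. Across the 39 genes the log2 fold changes of i-TERTci and of ADR with TERT WT/WT had a Pearson r of 0.905 and a Spearman rho of 0.875, those of i-TERTci and of ADR with TERT KO/KO 0.918 and 0.898, and those of the ADR effects in the 2 genotypes 0.896 and 0.806. Without i-TERTci replicate 2 the values against ADR were 0.897 and 0.857 (TERT WT/WT) and 0.92 and 0.911 (TERT KO/KO). Genes are not independent replicates, low-count genes can take larger fold changes in every comparison, and no p is given. The test of the difference itself called 0 of 39 genes when the effect of i-TERTci was set against that of ADR in TERT WT/WT mice (edgeR, 0.00505% of 19783 genes called, 1 gene), and DESeq2 also called 0. At an unadjusted p under 0.05 stood 1 of the 39, against 7.16% of all genes. It was Tyms, which stood 0.73 ± 0.22 log2 units higher with i-TERTci than with ADR (edgeR adjusted p = 0.46), and without i-TERTci replicate 2 edgeR also called 0 of 39. The experiments also differ in strain background and in the time of sampling, which cannot be told apart from the treatments. Every ADR library was above every saline library for 31 of 39 genes in TERT WT/WT mice, where this held for 17.7% of all genes, and for 37 of 39 with TERT KO/KO, where it held for 21.2% with 2 ADR libraries.

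No difference between genotypes passed the edgeR test. In saline 0 of 39 genes were called for TERT KO/KO against TERT WT/WT (edgeR, 0.00526% of genes called, DESeq2 0 of 39), and 4 were at an unadjusted p under 0.05, where 8.79% of all genes were, so that their share was near the background. These were Cdt1 at 0.42 ± 0.12, Mcm7 at 0.31 ± 0.12, Tk1 at 0.67 ± 0.23 and Chaf1b at 0.63 ± 0.27 on the log2 scale. After ADR edgeR called 0 of 39 (0.0736% of genes called) and DESeq2 called 1, with 127 of 19634 genes called in all. That gene was Mcm5, at 0.61 ± 0.14 by edgeR (edgeR adjusted p = 0.24, DESeq2 adjusted p = 0.0218). Its levels were 10.2, 11.4 and 11.3 CPM in TERT WT/WT ADR and 15.3 and 18.1 CPM in TERT KO/KO ADR libraries. Mcm6, Mcm10 and Pole were also at an unadjusted p under 0.05, with log2 differences of 0.75 ± 0.27, 0.50 ± 0.23 and 0.63 ± 0.20. With Mcm5 that makes 4 of 39, against 7.66% of all genes, so that this share too was near the background. The fitted difference after ADR was above 0 for 36 of 39 genes, against 9533 of all 19023. Its median was 0.28 in the 39 and 0.0006 over all genes. The difference was above 0 for only 24 of the 39 without TERT KO/KO ADR replicate 3. It was so for 31 without replicate 1 or replicate 3 of TERT WT/WT ADR. Genes are not independent replicates, so these counts are not a test of genotype. The difference of the ADR effects between genotypes called 0 of 39 genes by edgeR and by DESeq2 (edgeR called 0 genes in all, 0% of 19023). At an unadjusted p under 0.05 stood 2 of the 39, against 12% of all genes, Mcm5 at 0.53 ± 0.19 (edgeR adjusted p = 0.347) and Rrm1 at 0.44 ± 0.18 (edgeR adjusted p = 0.374).

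The 16 genes with an E2F word in a promoter window and the 18 with a window but no word both held genes that rose. With ADR in TERT WT/WT mice 14 of the 16 and 12 of the 18 were called, and the medians were 1.12 and 0.62. With TERT KO/KO 11 and 10 were called, with medians of 1.41 and 0.70, and in i-TERTci mice the medians were 1.33 and 0.69, or 1.69 and 0.91 without replicate 2. The ranges overlapped widely, from 0.20 to 3.13 with a word and from -0.15 to 2.50 without one in TERT WT/WT mice. The split was made with these values in view and was not tested. In both ADR comparisons Rrm2 had the largest rise without a word, and Gins3 a small difference with one.

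The levels of the genes before injury spanned a wide range. Per kb of exon in TERT WT/WT saline mice, Pcna was highest at 9.73 ± 0.20 CPM per kb (SD, n = 4), followed by Mcm7 at 3.94 ± 0.26, and Dtl was lowest at 0.0244 ± 0.0085, preceded by Clspn at 0.0396 ± 0.0056. Of the 38 pairs of neighbours in this order, 29 differed by less than the larger of their SDs. Pcna may include reads of its processed copies, since the handling of reads with several matches is not given in the sources used here.

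Fewer of the other genes of the replication machinery were called. Of 58 further replication genes 57 were tested in the ADR experiment, and 23 rose with TERT WT/WT (median 0.37), where 15.2% of all genes did, while 16 rose with TERT KO/KO (median 0.34), where 3.83% did. The log2 fold change was negative for 18 and 9 of the 57. In i-TERTci mice 0 of 56 were called by edgeR and 12 by DESeq2 (median 0.22), where 0.00564% and 8.12% of all genes were called higher. Without replicate 2 edgeR called 25 of 57 higher (median 0.33), where 15.1% of all genes were. Ccna2, cyclin A2 of S and G2 phase, rose by 3.15 ± 0.36 (edgeR adjusted p = 0.000712) and 3.16 ± 0.42 (edgeR adjusted p = 0.00406). Pclaf, which encodes a PCNA-binding protein, rose by 4.45 ± 0.53 (edgeR adjusted p = 0.000759) and 3.66 ± 0.59 (edgeR adjusted p = 0.00668). E2f8, a repressor of the E2F family, rose by 3.28 ± 0.43 (edgeR adjusted p = 0.00093) and 3.25 ± 0.50 (edgeR adjusted p = 0.00605). Asf1b, a histone chaperone, rose by 2.22 ± 0.36 and 2.87 ± 0.44, and Dscc1 and Chtf18, of the alternative clamp loader, by 3.12 ± 0.45 and 1.66 ± 0.27 in TERT WT/WT mice. In i-TERTci mice the smallest p values were those of Pclaf at 3.31 ± 0.58 (edgeR adjusted p = 0.0758, DESeq2 adjusted p = 2.07e-06), Ccna2 at 2.75 ± 0.49 (edgeR adjusted p = 0.0758, DESeq2 adjusted p = 2.72e-06), Asf1b at 2.53 ± 0.47 (edgeR adjusted p = 0.0758, DESeq2 adjusted p = 2.6e-05) and Ticrr, a factor for origin firing, at 3.09 ± 0.70 (edgeR adjusted p = 0.0762, DESeq2 adjusted p = 0.000442). Without replicate 2 these differences were 3.74 ± 0.34, 3.19 ± 0.20, 2.91 ± 0.29 and 3.55 ± 0.46, all called.

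The mitosis genes, which act after replication, had larger fold changes than the replication genes. All 20 rose in both genotypes after ADR, with medians of 3.21 (TERT WT/WT) and 3.00 (TERT KO/KO) against 0.87 and 1.03 for the replication genes. In i-TERTci mice edgeR called 0 of 20 and DESeq2 20, with a median of 2.48, and all 20 were at an unadjusted p under 0.05. Without replicate 2 edgeR called all 20, with a median of 2.94. Birc5, survivin, rose by 3.55 ± 0.34 (edgeR adjusted p = 0.000551) and Ccnb2, cyclin B2, by 3.48 ± 0.34 (edgeR adjusted p = 0.000551) in TERT WT/WT mice, and by 3.17 ± 0.39 and 3.57 ± 0.40 in TERT KO/KO mice. Mki67, the usual marker of cycling cells, differed by 2.69 ± 0.52 (edgeR adjusted p = 0.0758, DESeq2 adjusted p = 9.37e-06) in i-TERTci mice, and by 3.15 ± 0.16 without replicate 2.

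Summed markers of macrophages, fibroblasts and injured tubule moved with the replication genes, those of other cell types less so, and their part in these results was not tested. The 10 macrophage and monocyte markers summed to 158.8 to 210.2 CPM in TERT WT/WT saline and to 328.3, 841.4 and 849.2 CPM in TERT WT/WT ADR replicates 1, 2 and 3, with 8, 9 and 10 of the 10 markers above all saline libraries. In TERT KO/KO mice they summed to 162.4 to 188.9 CPM after saline and to 204.9 and 690.1 CPM in ADR replicates 1 and 3, with 7 and 10 of the 10 markers above all saline libraries. In replicate 1 Csf1r was below saline, at 56.8 CPM against at least 89.4 CPM, while Cd68 was above it, at 15.3 CPM against at most 6.02 CPM. In i-TERTci replicates 1 and 3 they summed to 1829 and 832.9 CPM, with all 10 above all controls, and in replicate 2 to 184.6 CPM, within the 137.8 to 192.2 CPM of controls. The 6 fibroblast markers followed the same order, at 3229, 460.9 and 2120 CPM in i-TERTci replicates 1, 2 and 3 against 306.2 to 463.7 CPM in controls. They were 527.5 to 1353 CPM in TERT WT/WT ADR against 263.5 to 277.8 CPM in saline libraries, and 636.5 and 1406 CPM in TERT KO/KO ADR replicates 1 and 3 against 252.6 to 299.2 CPM. Not every fibroblast marker rose. Above all saline libraries were 4, 5 and 5 of the 6 in TERT WT/WT ADR replicates 1, 2 and 3. In TERT KO/KO ADR replicates 1 and 3 it was 4 and 5 of the 6. In i-TERTci replicates 1, 2 and 3, 6, 3 and 6 were above all controls. The 5 markers of injured tubule were at 390.9 to 2352 CPM in TERT WT/WT ADR against 145.2 to 252.3 CPM in saline libraries, at 511.3 and 1495 CPM in TERT KO/KO ADR replicates 1 and 3 against 119.4 to 159.5 CPM, and at 1389, 219.1 and 699.6 CPM in i-TERTci replicates 1, 2 and 3 against 129.7 to 202.6 CPM.

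The 10 markers of T, NK, B and plasma cells did not follow that order in i-TERTci mice, where replicate 2 was highest, at 228.1 CPM against 105.6 and 171.8 CPM in replicates 1 and 3 and 24.4 to 31.9 CPM in controls. They were at 8.99 and 28.6 CPM in TERT KO/KO ADR replicates 1 and 3 against 15.2 to 17.5 CPM in saline libraries, and at 24.6 to 53.9 CPM in TERT WT/WT ADR against 13.5 to 18.5 CPM in saline libraries. The 4 erythroid markers ranged from 1197 to 3230 CPM in TERT WT/WT ADR against 356.6 to 714.4 CPM in saline libraries. In i-TERTci replicate 1 they were at 862.6 CPM, within the 515.8 to 980.1 CPM of controls. They were at 2466 and 2086 CPM in i-TERTci replicates 2 and 3. In TERT KO/KO ADR replicates 1 and 3 they were at 665 and 486.9 CPM, within the 399.3 to 1441 CPM of saline. The 4 endothelial markers were lower in TERT WT/WT ADR, at 181.4 to 265.5 CPM against 293.9 to 301.8 CPM in saline libraries without overlap. They were at 205.2 and 272 CPM in TERT KO/KO ADR against 270.2 to 320.9 CPM, and at 297.8 to 357.5 CPM in i-TERTci against 324.6 to 349.5 CPM in control libraries. The 5 neutrophil markers summed to at most 5.14 CPM in any of the 19 libraries. They were at 1.78 to 3.34 CPM in TERT WT/WT ADR against 0.432 to 1.33 CPM in saline libraries, without overlap. In TERT KO/KO ADR replicates 1 and 3 they were at 5.14 and 0.747 CPM against 0.595 to 1.19 CPM. They were at 0.521 to 2.50 CPM in i-TERTci against 0.0208 to 0.822 CPM in control libraries. The 10 hepatocyte markers summed to 19.8 to 162.5 CPM, the highest in a TERT KO/KO saline library. The 16 kidney markers were present in each of the 19, at 8121 to 12410 CPM in TERT WT/WT ADR against 13120 to 16540 CPM in saline libraries, at 9884 and 11790 CPM in TERT KO/KO ADR against 10750 to 13370 CPM, and at 10170 to 12780 CPM in i-TERTci against 13080 to 17900 CPM in control libraries.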

How the data were processed

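RNA of whole kidney was sequenced in 20 libraries. The authors deposited 1 table of raw read counts per gene, unnormalised, for 55471 gene identifiers. The submitters' processing notes list FastQC, Trimmomatic, STAR, DESeq2 and build mm10. The counting tool, the annotation and the strand setting are not given in the sources used here, so reads of overlapping antisense genes may be shared. Besides the genes named above for this, Fen1, Chaf1a and Ccne2 overlap genes on the other strand with higher counts. The 39 genes were found by matching identifiers to GENCODE M21 symbols (54487 of 55471 matched with the version number and 55144 without it, and 327 did not match). The genes, the other lists and the tests were chosen with earlier results of these data known.

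Groups came from the sample labels. Each experiment was fitted alone with edgeR 4.0.16 in R 4.3.3 (TMM factors, filterByExpr, robust quasi-likelihood F test), with Benjamini-Hochberg adjustment over all genes tested and a threshold of 0.05. All groups of an experiment shared 1 estimate of the spread, and the i-TERTci and ADR effects were compared in a fit of the 19 libraries. Tests and group values omit TERT KO/KO ADR replicate 2. SEs are the log2 fold change over the square root of F. DESeq2 1.42.0, other factors and filters, a replicate block and each library left out were the alternatives. P-values set each difference against that shared estimate of the spread between mice. Tests of TERT KO/KO ADR, with 2 libraries, therefore also rest on mice of the other groups. Levels per library are TMM CPM, and marker sums are CPM without TMM factors. Genes given values in every library were the 2 of each role with the highest mean CPM, with Mcm6, Rrm2, Tyms and Mcm5 added after their values were seen. The fits were tested on simulated counts. Totals of 39323498 to 48399322 counts per library limit the precision of the lowest genes, such as Dtl with 8 to 21 counts in control libraries. A result for 1 gene of the further replication genes is not reported here.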

Additional observations from a re-analysis of the deposited data

Results flagged for a closer look

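The Pcna level of TERT WT/WT saline replicate 3, at 24.07 CPM, lay apart from the other 3 libraries of its group, which ranged from 23.05 to 23.17 CPM. The gap was 0.882 of the group's whole range, past Dixon's limit for 4 samples. Of 36 such sets of values tested this was the only one, and chance gives about 1 in 20. All 3 TERT WT/WT ADR libraries lay above this library too.

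TERT KO/KO ADR replicate 2, whose markers are those of hepatocytes, was left out of the groups compared, apart from the counts given with it included. In that library 21 of the 39 replication genes exceeded every TERT KO/KO saline library in CPM without TMM factors. The share of all genes that did so was not computed, so this count does not set the replication genes apart. The 39 genes summed to 241.8 CPM in that library. Dtl had 126 counts there, and the saline libraries of TERT KO/KO kidneys had 8 to 15. These values compare a liver-like library with kidneys.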

How the results depend on the processing

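For i-TERTci the number of replication genes called was 0 by edgeR under the other factors and filters and with the replicate block, 19 by DESeq2, and 0 to 35 with a library left out (35 without i-TERTci replicate 2). With ADR in TERT WT/WT mice the count of 30 became 31 by DESeq2, 27 with the replicate block and 23 to 34 with a library left out. In TERT KO/KO mice the count of 26 became 30 by DESeq2, 22 with the block and 10 to 25 with a library left out. Between genotypes after ADR it was 1 by DESeq2, and it was 0 in every other setting of the genotype, interaction and i-TERTci against ADR comparisons. The cause of these changes was not tested. The labels do not say whether the replicate numbers pair the mice. Deviations of same-numbered libraries correlated at -0.34 to 0.361, and with so few libraries in a group these values cannot decide it. For Gins3 with i-TERTci the difference was -0.0122 by DESeq2, -0.0158 with median-ratio factors, -0.0246 with no filter, -0.0121 with a filter at a mean of 1 CPM, -0.0289 with the block, and -0.1346 to 0.2091 with a library left out. Tyms with ADR in TERT KO/KO mice ranged from -0.2205 to 0.0468 with a library left out. No other named gene changed direction.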

Other observations

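Genes that hold cells before S phase were fixed as a list of 16. With ADR in TERT WT/WT mice 4 rose and 2 fell, where 15.2% of all genes were called higher and 12% lower, so that both shares were not far from the background. Cdkn1a, which encodes the CDK inhibitor p21, rose by 3.21 ± 0.38 on the log2 scale with ADR in TERT WT/WT mice (edgeR adjusted p = 0.000857) and by 3.83 in TERT KO/KO mice (edgeR adjusted p = 0.00313). In i-TERTci mice it differed by 2.45 (edgeR adjusted p = 0.0758, DESeq2 adjusted p = 6.75e-06), and by 2.84 without replicate 2 (edgeR adjusted p = 0.000179). In TERT WT/WT mice 3 others rose, Cdkn2d, Cdkn2c and Lin37, by 0.49, 0.45 and 0.51. Rbl2, which encodes the retinoblastoma relative p130, and Lin52, a subunit of the DREAM complex that represses cell cycle genes in resting cells, fell by 0.58 and 0.54 (edgeR adjusted p = 0.0137 and 0.0234). With TERT KO/KO, Cdkn1a was the 1 gene called of 16, where 3.83% of all genes were called higher. In i-TERTci mice edgeR called 0 of 15 tested, where 0.00564% of all genes were called higher. Without replicate 2 it called 3 of 16, where 15.1% of all genes were called higher, so that this share was near the background. An E2F word stood in a promoter window of 3 of the 11 genes that had one (27.3%).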
